A study of Arabidopsis thaliana with 22 samples.

Results

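Core histone H2A is encoded in *Arabidopsis thaliana* by a gene family, of which 10 loci in 4 classes were looked for on the arrays by the probe set names of the platform annotation and of the study's tables. Only 1 of the 10 had a probe set carrying its name, *HTA9* (AT1G52740, probe set 260154_at), which encodes the histone variant H2A.Z. No named probe set was found for the 4 replication-type loci (*HTA1* AT5G54640, *HTA2* AT4G27230, *HTA10* AT1G51060 and *HTA13* AT3G20670), for the H2A.X loci *HTA5* (AT1G08880) and *HTA3* (AT1G54690), for the H2A.W loci *HTA6* (AT5G59870) and *HTA7* (AT5G27670), or for the other H2A.Z locus, *HTA8* (AT2G38810), and these 9 are not analysed here. A comparison of replication-type H2A with its variants could therefore not be made, and the values below are those of *HTA9* mRNA, 1 of 22746 probe sets. *HTA9* was named through a table made for another mutant of the study. One prefilter of the study used wild-type translation states that include those described here, so independence from these arrays cannot be claimed. The probe set has no suffix that marks cross-hybridisation.

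H2A pairs with H2B in the nucleosome, around an H3 and H4 core. Replication-type histone genes are switched on in S phase, when new chromatin is assembled, whereas H2A.Z is exchanged into existing nucleosomes by a remodelling complex at any stage of the cell cycle. In plants H2A.Z marks the start of active genes and the bodies of inducible ones, and has been linked to temperature responses and flowering time.

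The study asked how loss of 2 poly(A)-binding proteins, PAB2 and PAB8, alters the binding of mRNAs to ribosomes. The double mutant *pab2 pab8* (insertion alleles SALK_026293 and SALK_022160) and wild type were both in the Columbia background, and both were grown for 10 to 12 days at 22°C in continuous light on agar with 1% sucrose. Extracts of aerial tissue were separated on sucrose gradients into polysomal RNA (PL) and non-polysomal RNA (NP, free mRNA and single ribosomes). Translation state (TL) was log2 PL minus log2 NP of a genotype and replicate. PL and NP were measured in 4 biological replicates per genotype and total RNA in 3, on 22 arrays in all. The mutant carries both insertions throughout development and is slightly dwarfed. In bulk tissue, fewer cells that express a gene and less of its RNA per cell cannot be told apart.

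The targeted mRNAs followed the labels on all 22 arrays. *PAB2* signal in total RNA was 10.55 to 11.01 on the log2 scale in wild type and 4.95 to 5.07 in *pab2 pab8*, and *PAB8* signal was 9.89 to 10.34 against 5.88 to 6.69. In NP and PL, *PAB2* was at least 9.68 in wild type and at most 5.29 in the mutant, and *PAB8* at least 7.66 and at most 5.53. Median log2 signal per array was 6.12 to 6.23 in total RNA, 4.68 to 4.98 in NP and 4.89 to 4.99 in PL, with the lowest NP median in mutant replicate 2. Of the tissue markers with a named probe set, the green tissue gene *RCA* had a log2 signal of 14.31 in total RNA of both genotypes. In wild type its signal was only 4.17 in NP and 3.61 in PL, below the array medians of both fractions. The root gene *PYK10* had 12.22 in total RNA of wild type and 12.16 in that of the mutant. The log2 change of *PYK10* was -0.49 in NP and -0.39 in PL (FDR 0.626 and 0.923, limma), and that of *EXPA7*, a root hair gene, was -0.37 in total RNA (FDR 0.147). The seed storage protein mRNAs *CRA1* and *CRU3* were higher in total RNA of the mutant (log2 change 3.45 and 3.29, FDR 0.000977 and 0.0010, limma), but both probe sets were named only through a table that the study chose on these samples. The part of these tissue markers in the *HTA9* values was not tested.

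*HTA9* mRNA was bright in every sample and had a low polysomal signal for its non-polysomal one. Its log2 signal was 4.16 to 4.63 above the array median in total RNA, 5.32 to 6.57 above in NP and 4.94 to 5.38 above in PL. Wild-type log2 TL was -0.66, -1.00, -1.41 and -1.04 in replicates 1 to 4, a mean of -1.03 ± 0.30 (SD, n = 4), so that normalized NP signal was 2.04 times PL signal. Over all probe sets the median wild-type TL was -0.10, and the *HTA9* mean stood at percentile 2.43. The percentile was 14.4 in replicate 1 and between 1.03 and 3.02 in the other 3. The zero of TL is set by normalization, so these ranks and not the sign place the mRNA among the less loaded ones. In *pab2 pab8* the log2 TL was -0.33, -0.80, -0.91 and -0.26, a mean of -0.58 ± 0.33 (SD, n = 4) at percentile 7.18, with NP signal 1.49 times PL signal.

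**Figure D1:**
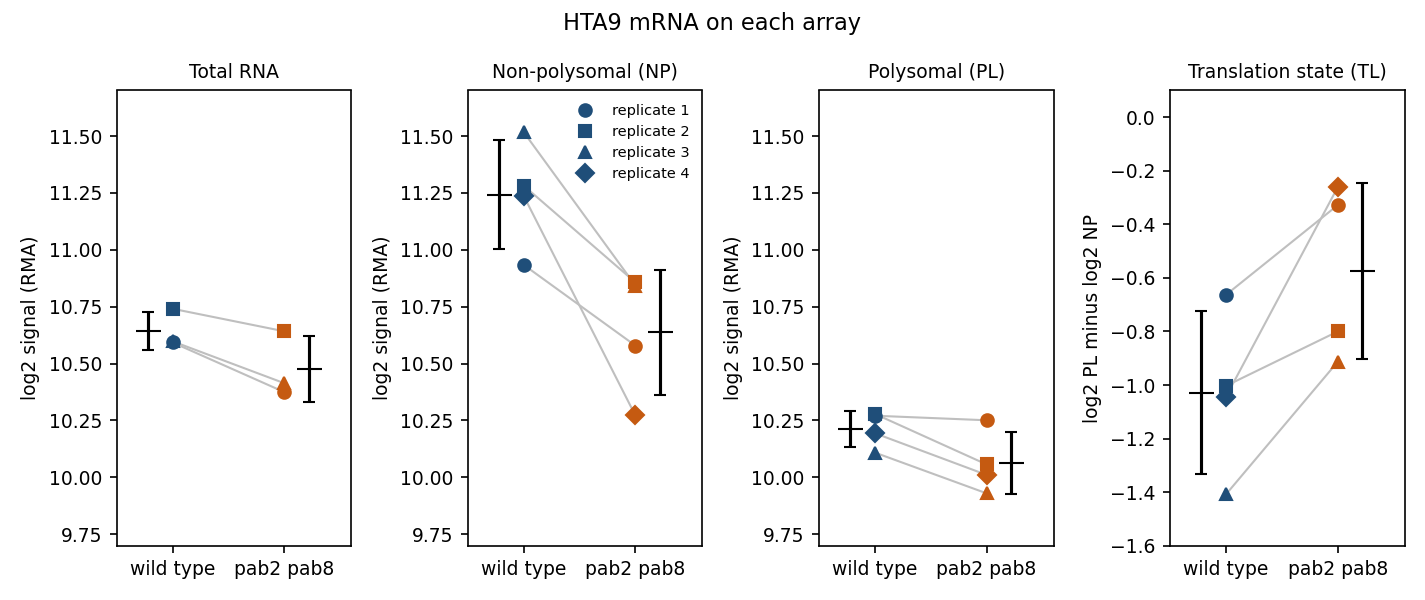
Log2 RMA signal of *HTA9* in total RNA, NP and PL, and log2 TL, for each replicate of wild type (blue) and *pab2 pab8* (orange). Grey lines join replicates of 1 number, and bars at the side give the mean and SD. The genotypes separate in NP, overlap in the other panels, and within each panel all lines run the same way, down in total RNA, NP and PL and up in TL.

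Total RNA held slightly less *HTA9* mRNA in the mutant, within the spread of the replicates. The log2 signal was 10.59, 10.74 and 10.60 in wild type and 10.38, 10.64 and 10.41 in *pab2 pab8*. Mutant replicates 1 and 3 lay below all wild-type values and replicate 2 lay between them, so the groups overlapped. The log2 change in transcript level (TC) was -0.17 ± 0.10 (SE; 95% confidence interval -0.40 to 0.06), lower in 3 of 3 replicate pairs, and did not pass the test (FDR 0.390, limma). Across the array, 3.89% of probe sets passed FDR 0.05 in TC.

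The non-polysomal fraction showed the largest difference of the 3 kinds of RNA. The log2 NP signal of *HTA9* was 10.93, 11.28, 11.52 and 11.24 in wild type and 10.58, 10.86, 10.84 and 10.27 in *pab2 pab8*. Every mutant value lay below every wild-type value, as was so for 3.01% of all probe sets. The log2 change was -0.60 ± 0.19 (SE; 95% confidence interval -1.01 to -0.20), or 1.52-fold less. It was lower in 4 of 4 pairs, by -0.35 in replicate 1 up to -0.96 in replicate 4. The limma p was 0.00659, and after adjustment over all probe sets the FDR was 0.397, so the change did not pass. Only 0.0747% of probe sets passed in NP, whereas 8.02% had an unadjusted p below 0.05.

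Polysomal *HTA9* mRNA differed little between genotypes. The log2 PL signal was 10.27, 10.28, 10.11 and 10.19 in wild type and 10.25, 10.06, 9.93 and 10.01 in the mutant. Mutant replicate 1 lay among the wild-type values and the other 3 lay below them. The log2 change was -0.15 ± 0.098 (SE; 95% confidence interval -0.37 to 0.07), lower in 4 of 4 pairs, and did not pass (FDR 0.879, limma), beside 0.207% of probe sets that passed in PL.

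Translation state of *HTA9* was accordingly less negative in the mutant in each of 4 pairs, by 0.34, 0.20, 0.50 and 0.78. The values of the genotypes overlapped, since mutant replicates 2 and 3 fell within the wild-type range. The mean log2 change in TL was 0.45 ± 0.20 (SE; 95% confidence interval 0.03 to 0.88), a 1.37-fold higher PL to NP ratio. The limma p was 0.0389 and the FDR 0.548, so it did not pass, beside 0.0308% of probe sets that did. A change at least as high was seen in 3.94% of all probe sets, whose median TL change was 0.05. Among the 553 other probe sets with a wild-type TL at or below that of *HTA9*, the median TL change was 0.08, 14.3% had a change at least as high, and none passed FDR 0.05 (limma). These 553 were chosen by a low wild-type value, which favours a higher mutant value among them.

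**Figure D2:**
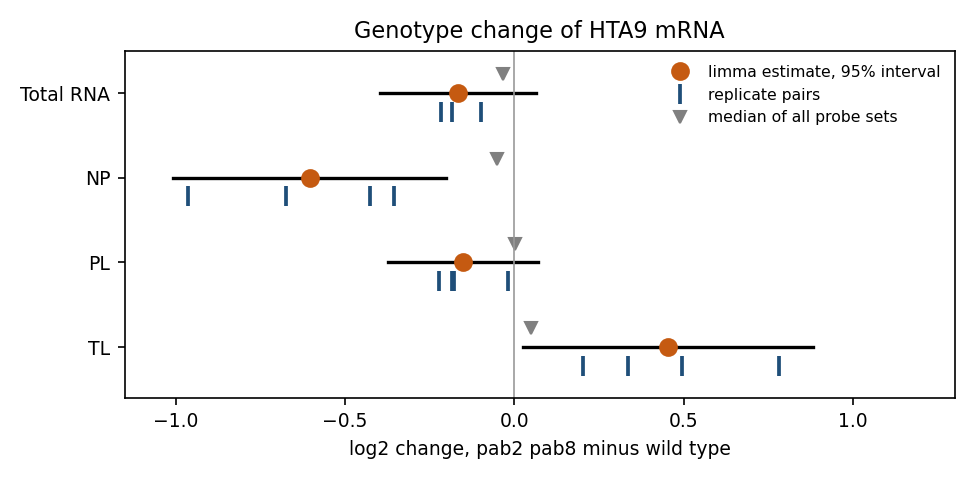
Log2 change of *HTA9* signal, *pab2 pab8* minus wild type, in total RNA, NP, PL and TL. Points and bars are limma estimates with 95% confidence intervals, blue ticks are replicate pairs, and grey triangles are medians of all probe sets. The NP estimate of -0.60 and the TL estimate of 0.45 have intervals that leave out 0 before adjustment over all probe sets.

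The histones that join H2A in the nucleosome were represented by 20 probe sets, namely 7 for H2B, 5 for H3.1, 3 for H3.3 and 5 for H4. Each H3 and H4 probe set was annotated to several genes of the same histone, so it cannot be given to a single locus. In wild type their log2 TL had a median of 1.65 and ran from -0.39 to 2.55, with 18 of 20 between 0.59 and 2.55. The other 2, both for H3.1, had wild-type signals of 3.02 and 3.90 in NP and 2.63 and 3.71 in PL. These lay under the array medians of both fractions, while the signals in total RNA were 9.45 and 8.13. *HTA9* TL was below all 20 in each wild-type replicate, and in the mutant in replicates 2, 3 and 4. In mutant replicate 1 a single probe set had a lower TL. Among named H2B genes the wild-type log2 TL was 1.39 (*HTB6*) to 2.12 (*HTB2*), against -1.03 for *HTA9*.

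**Figure D3:**
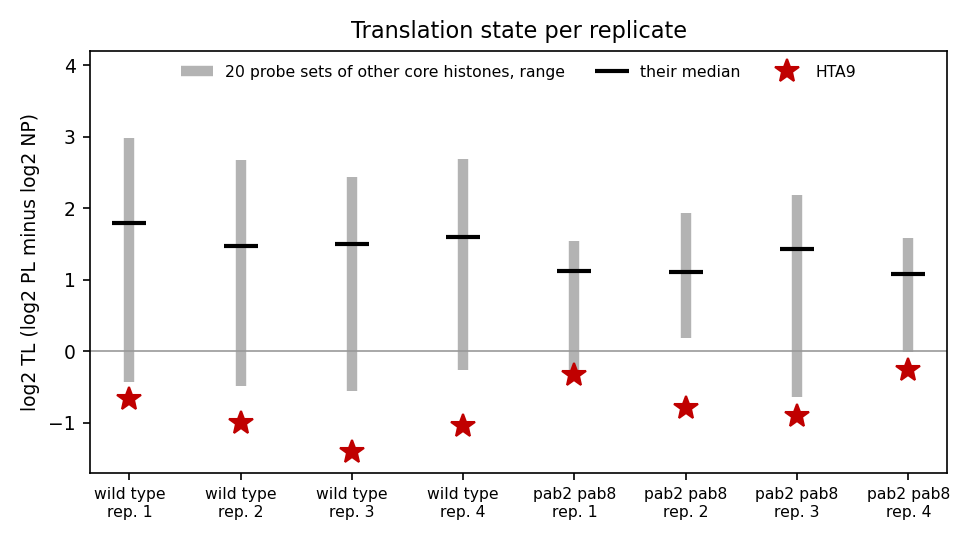
Log2 TL of *HTA9* (stars) in each replicate, with the range (grey) and median (black) of 20 probe sets of the other core histones. *HTA9* lies below the range in 7 of 8 genotype and replicate combinations and near its foot in mutant replicate 1, and the gap to the median is narrower in *pab2 pab8*.

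The genotype changes of most probe sets of the other core histones ran opposite to those of *HTA9* in NP and TL. In NP the median log2 change was 0.93 for H2B, 0.83 for H3.1, 0.72 for H4 and 0.24 for H3.3. In TL the medians were -0.45, -0.23, -0.55 and -0.16 in the same order. No H3.3 probe set had an unadjusted p below 0.05 in NP or TL (limma). In NP, 19 of 20 probe sets had a change above 0 with a median of 0.75, beside 40.7% of all probe sets. None passed FDR 0.05 (limma), while 13 had an unadjusted p below 0.05. With the replicate number as a block, 5 of the 20 passed in NP and 4 in PL, all higher in the mutant, and none in TL (limma). Of all 22746 probe sets, the same block passed 146 in NP and 1018 in PL, in place of 17 and 47. Calls thus rose over the whole array, though 5 and 4 of 20 are larger shares than 146 and 1018 of 22746. In TL, 18 of 20 had a change below 0 with a median of -0.33, and again none passed, with 8 at an unadjusted p below 0.05. Over the array, 58.9% of probe sets had a TL change above 0 and 8.64% an unadjusted p below 0.05. *HTA9* had the lowest change of the 21 in TC, NP and PL, and in TL a higher change than 19 of the 20. The one probe set above it was an H3.1 probe set with a TL change of 0.48, the one with a wild-type signal of 3.02 in NP and 2.63 in PL.

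The gap between *HTA9* and the median of these histones was then compared between genotypes, a comparison chosen after the values had been seen. In TL the gap averaged -2.62 ± 0.21 (SD, n = 4) in wild type and -1.76 ± 0.46 (SD, n = 4) in the mutant, a log2 difference of 0.86 that was above 0 in 4 of 4 pairs. The 2-sided exact permutation p was 0.0286, the smallest that 4 against 4 allows, and 0.0571 after Benjamini-Hochberg adjustment over the 4 comparisons made. Within pairs the exact p was 0.125, again the smallest possible. In NP the difference was -1.50 with the same p-values (exact permutation test), below 0 in 4 of 4 pairs. The NP arrays enter both, so NP and TL are not separate evidence. In total RNA the difference was -0.39 (exact p = 0.1, the smallest that 3 against 3 allows) and in PL -0.43 (exact p = 0.143), below 0 in 3 of 3 and 3 of 4 pairs. None of the 4 passed 0.05 after adjustment, which does not account for choosing the comparison after the values were seen. These p-values therefore describe the gap and are not independent support for a difference.

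**Figure D4:**
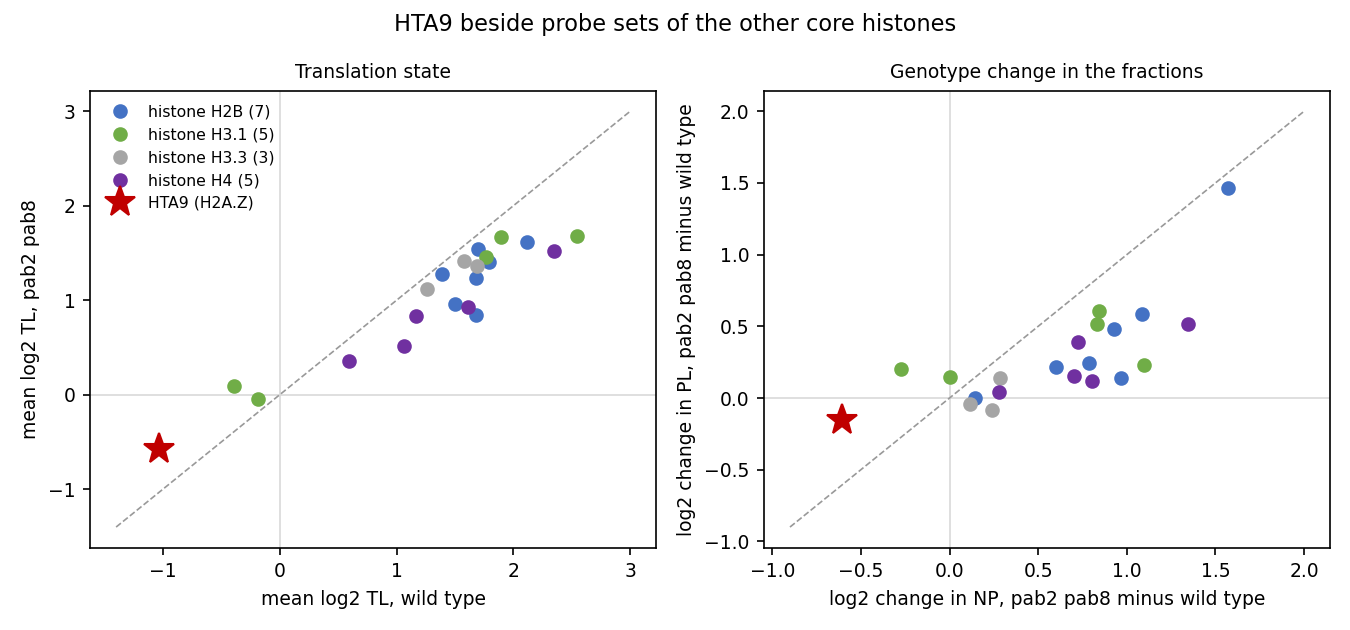
Mean log2 TL in *pab2 pab8* against wild type (left) and log2 genotype change in PL against NP (right) for *HTA9* (star) and 20 probe sets of the other core histones, with the line of equal values dashed. *HTA9* sits at the lower left of both panels, above the line in both, whereas most other histones lie below it.

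In total RNA the H2B genes *HTB2* (log2 change 0.66, FDR 0.0397), *HTB3* (0.96, FDR 0.0478) and *HTB6* (1.21, FDR 0.0140) rose in the mutant (limma). They were 3 of the 7 H2B probe sets measured, beside 3.89% of all probe sets that passed in TC in either direction. None of the 7 passed when replicate 1 or replicate 2 was left out, and *HTB3* had an FDR of 0.0759 with the replicate number as a block. *HTB6* was named through several tables of the study, and not only through that chosen on these samples. No H2B probe set passed in NP, PL or TL. With the replicate block 3 passed in NP and 2 in PL, beside 146 and 1018 of all 22746 probe sets.

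Of 18 genes for H2A deposition and exchange, 3 had a named probe set. *INO80*, the ATPase of a remodelling complex that acts on H2A.Z nucleosomes in yeast, rose in total RNA of the mutant (log2 change 0.48, FDR 0.0423, limma), but the FDR was 0.183, 0.185 and 0.111 without replicates 1, 2 and 3. Its log2 change was -0.06 in PL. *SWC2*, a subunit of the complex that inserts H2A.Z, had a log2 change of 0.27 in total RNA (FDR 0.354) and -0.20 in TL. The histone chaperone *NAP1;3* had 0.10 in total RNA (FDR 0.739).

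Cell cycle genes were sparsely covered. Of 19 genes of DNA replication 2 were measured, *ICU2*, a subunit of DNA polymerase alpha (log2 TC 0.14, FDR 0.486, limma), and *MCM7*, a subunit of the replicative helicase (-0.04). Across the array 3.89% of probe sets passed FDR 0.05 in TC, in either direction. Of 13 mitotic loci 5 probe sets were available, and 3 rose in total RNA. These were the cytokinetic kinesin *HINKEL* (1.07, FDR 0.00624, and 0.103 without replicate 2), the cyclin *CYCB1;1* (0.51, FDR 0.0409, lost without any 1 of the replicates and with the replicate block) and a probe set shared by *CDC20* genes (0.77, FDR 0.0243, and 0.115 and 0.157 without replicates 1 and 2). *HINKEL* and *CYCB1;1* were named through tables of the study, that of *HINKEL* chosen on these samples. None of 10 DNA damage response genes and none of 3 further H2A loci (*HTA12*, *HTA11*, *HTA4*) had a named probe set.

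Probe sets that followed *HTA9* most closely were ranked by Pearson correlation over the 22 arrays after the mean of each kind of RNA was removed. Of 13939 named probe sets the 5 highest were *FUT13* (r = 0.867), AT5G43460 (0.852), *MAC3B* (0.813), *GAMMA CAL2* (0.810) and AT1G32570 (0.806), and 49 had r of at least 0.7. The 5 highest changed the same way as *HTA9*, lower in NP (log2 change -0.78 to -0.38) and higher in TL (0.11 to 0.37), none past FDR 0.05 in TL. The genotype difference was left in the ranked values, so a high r favours changes of the same sign. The 20 probe sets of the other core histones had r of -0.75 to 0.34, with a median of -0.61. The arrays share normalization and genotype, so these correlations are descriptions only.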

How the data were processed

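Arrays were hybridised with total, NP or PL RNA of *pab2 pab8* and wild type, 1 sample per array. The authors deposited log2 signals, extracted with affy and background-corrected, normalized and summarized by RMA (versions not given in the sources used here), and log2 PL minus log2 NP formed from them. No global shift in polysome loading was corrected for. The deposited values were used unchanged. TL was formed again from the signals, and differed by at most 0.001 from the deposited TL of replicates 1 to 3. Deposited TL columns of the fourth replicate (2) carry a replicate number that no sample label has, and were not used. The number of arrays, not a read depth, limits the precision.

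Probe sets were named from the platform annotation (13436 with 1 gene) and from the study's tables (504), while 550 were annotated to several genes and 8256 stayed unnamed. The members, gene lists and tests were chosen with earlier results of these data known. The planned ranking by likeness to replication-type H2A had no such probe set, and *HTA9* was used in its place. The naming rule was all H2A members with a probe set, the leading member of each list by p in TC, and the 5 probe sets most like *HTA9*. Other genes of the short lists were named after their values were seen.

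Each change was fitted with lmFit and eBayes of limma 3.58.1 (R 4.3.3) over all 22746 probe sets within total RNA, NP, PL or TL, with Benjamini-Hochberg adjustment and a threshold of FDR 0.05. The fits were tested on simulated data. Single values were compared by exact permutation over samples (numpy 2.4.6). The labels number the replicates alike in both genotypes, and samples of equal number were taken as pairs. Same-numbered samples deviated together with r of 0.286 to 0.382 in NP, 0.428 to 0.797 in PL, 0.0525 to 0.135 in TL and -0.164 to 0.211 in TC. The block by replicate number, median centring, a second quantile normalization, a filter on dim probe sets, a mean-variance trend, a joint genotype by fraction fit and leaving out replicates were alternatives.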

Additional observations from a re-analysis of the deposited data

How the results depend on the processing

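In each alternative tried, *HTA9* kept its direction and stayed outside FDR 0.05 (36 of 36 values). A fit on the deposited TL columns was not run, since those of the fourth replicate were left out for their replicate number. The log2 change ranged over -0.23 to -0.14 in TC, -0.69 to -0.48 in NP, -0.19 to -0.13 in PL and 0.34 to 0.54 in TL. With the replicate block, the FDR of *HTA9* was 0.344 in TC, 0.131 in NP, 0.425 in PL and 0.458 in TL, and the block changed no call of *HTA9*. Of the 20 probe sets of the other core histones, 2 passed in TC, 5 in NP and 4 in PL with it, in place of 3, none and none.

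Counts of all probe sets past FDR 0.05 moved more, and the cause was not tested. The replicate block gave 146 in place of 17 in NP and 1018 in place of 47 in PL. A mean-variance trend gave 36 in NP and 30 in place of 7 in TL. Median centring gave 11 in TL, the brighter probe sets alone 3, and the joint genotype by fraction fit none (limma, 754 at an unadjusted p below 0.05). Leaving out 1 replicate gave 68 to 377 in place of 885 in TC, 4 to 8 in NP, 3 to 21 in PL and 0 to 8 in TL.

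The gap between *HTA9* and the other core histones, with alternatives chosen after seeing the data, differed between genotypes by 0.72 to 0.96 in TL and -1.71 to -1.25 in NP when 1 replicate was left out, and by 0.85 and -1.69 against H2B alone. Only 1 of 10 H2A loci was measured by name, so no value speaks for the family.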
